A study of Rattus norvegicus with 59 samples.

Results

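The genes described here encode voltage-gated sodium channels and a sodium pump of the rat brain: the channel alpha subunits Scn1a, Scn2a, Scn3a and Scn8a, the channel beta subunit Scn2b, and the pump beta subunit Atp1b1. Every probe set whose only gene symbol in the array annotation was one of these names was taken, which gave 11 probe sets of 6 genes among 8740 probe sets of 4736 genes. RNA came from adult male rats of the alcohol-preferring inbred line iP (6 animals, numbered 1 to 6) and the non-preferring inbred line iNP (6 animals, 7 to 12). Of each rat, the cortex, the striatum, the hippocampus, the amygdala and the nucleus accumbens (called accumbens here) were measured separately, on 59 arrays in all; for iP animal 6 the cortex was not analysed here, and its mean is that of the other 4 regions. The labels name no drug or alcohol treatment for either line. Each line is inbred, so its animals share a genome, and a line difference cannot be told apart from any other difference between these 2 strains. In such bulk tissue, fewer cells of a type and less RNA per cell cannot be told apart.

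Voltage-gated sodium channels carry the inward current of the action potential. A large alpha subunit forms the pore, and smaller beta subunits change its gating and its placement in the membrane. The sodium pump, an ATPase of an alpha and a beta subunit, then moves sodium out and potassium into the cell and so keeps the gradients on which these channels depend. As background on the members, Scn1a is known for its role in inhibitory interneurons, Scn2a for axons and the axon initial segment of excitatory neurons, Scn3a for a high level in the developing rodent brain, and Scn8a for nodes of Ranvier and mature axon initial segments.

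Scn3a, Scn2a and Scn1a lie close together on rat chromosome 3, in that order in the RefSeq gene table of the GRCr8 assembly, with Csrnp3, a predicted gene, Galnt3 and Ttc21b between Scn2a and Scn1a. Scn9a and Scn7a follow on the far side of Scn1a. RefSeq promoter entries on GRCr8 were found for 4 of the 6 members; Scn1a and Atp1b1 had none in the table used. The 250 bases before the start are printed for Scn3a, which differed between the lines, for its neighbour Scn2a, which is read from the opposite strand, and for Scn8a, whose promoter has another base composition. Letters are lower case, on the strand of the gene, with GGGCGG in capitals.
Scn3a, chr3:70666199-70666448, minus strand: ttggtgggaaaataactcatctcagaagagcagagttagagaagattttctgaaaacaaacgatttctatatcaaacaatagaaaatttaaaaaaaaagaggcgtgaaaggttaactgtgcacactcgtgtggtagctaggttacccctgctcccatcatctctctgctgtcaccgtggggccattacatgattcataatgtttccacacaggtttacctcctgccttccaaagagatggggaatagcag
Scn2a, chr3:70710706-70710955, plus strand: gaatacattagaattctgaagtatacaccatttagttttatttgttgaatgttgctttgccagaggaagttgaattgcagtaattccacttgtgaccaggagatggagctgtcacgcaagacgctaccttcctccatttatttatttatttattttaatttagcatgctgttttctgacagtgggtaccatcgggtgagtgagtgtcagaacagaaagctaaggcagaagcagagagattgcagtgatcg
Scn8a, chr7:133860977-133861226, plus strand: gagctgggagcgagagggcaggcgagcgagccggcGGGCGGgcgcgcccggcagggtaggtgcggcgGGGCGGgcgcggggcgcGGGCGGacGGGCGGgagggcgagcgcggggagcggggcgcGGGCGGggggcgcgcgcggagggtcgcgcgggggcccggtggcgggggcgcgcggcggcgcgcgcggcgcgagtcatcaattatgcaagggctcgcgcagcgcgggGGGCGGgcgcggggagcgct
G and C made up 41.6% of the Scn3a window, 39.6% of the Scn2a window and 86% of the Scn8a window, against a median of 51.2% over 33469 rat promoters. GGGCGG was searched on both strands and stood 6 times in the Scn8a window; 30.5% of all promoters held it. TATAAA (12.9% of all promoters), CCAAT (34.0%), TGACGT (6.95%) and, outside Scn8a, GGGCGG were not among the letters of these windows or of the Scn2b window, and nothing follows from that about any factor.

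Of the 11 member probe sets, 9 passed the filter on low signal and were among the 5244 probe sets tested. Scn2b, with 1 probe set (U37147_at), and the Scn8a probe set M27223_at did not pass. Both Scn3a probe sets (Y00766_g_at and Y00766_at) were designed on the same sequence record and are not independent, and Scn1a (M22253_at) and Scn2a (M22254_at) have 1 probe set each. Binding of a paralog's RNA to these probe sets was not measured. Whether the sequence under the probes differs between the lines was not tested either, so the line differences below are differences in signal.

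The median signal of an array ran from 251 to 391, after a scaling by the authors that gave each array the same trimmed mean. On their whole profile, 5 arrays were closest to another region than their own: iP cortex 5, iP amygdala 1, iP accumbens 4, iNP amygdala 7 and iNP amygdala 8. The array iP cortex 5 also had a 3′ to 5′ log2 ratio of 6.14 for Gapdh and of 4.42 for beta-actin, a ratio that is high where RNA is degraded. Neither ratio, nor the median signal, passed an exact permutation test between the lines in any region (15 two-sided tests, smallest p = 0.0606, adjusted p = 0.841). All 5 neuronal markers with a probe set (such as Snap25, Nefl and Syn1) passed the filter and none was called between the lines. Their summed signal ran from 30275 to 34676 in iP animals and from 30375 to 34072 in iNP animals. Of the inhibitory neuron markers, 1 of 6 was called, Npy (log2 difference -0.24, limma adjusted p = 0.0146), and the summed signal ran from 25197 to 30114 in iP animals and from 28261 to 30017 in iNP animals. One of 4 tested microglial markers (P2ry12, -0.77, adjusted p = 8.99e-04) and 1 of 3 tested endothelial markers (Pecam1, -0.47, adjusted p = 0.00155) were lower in iP. Of all tested probe sets, 2.65% were called between the lines in the same test. The summed microglial signal ran from 2348 to 3224 in iP animals and from 2941 to 3364 in iNP animals, and the endothelial one from 3398 to 3891 in iP and from 3524 to 4237 in iNP. No tested marker was called among 7 of astrocytes, 6 of oligodendrocytes, 2 of choroid plexus and 6 of medium spiny neurons. These sums add linear signals, so the brightest markers weigh most. They were averaged over an animal's arrays with region levels left in, and animal 6 has no cortex in them. Markers below the filter are included (2 of 6 microglial and 1 of 4 endothelial ones). The summed signals of each of these 8 lists overlapped between the lines, and no marker list was at 0. The part of cell composition in the differences below was not tested.

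Between the lines, Scn1a was higher and Scn3a lower in iP brain, and no other tested member was called. Scn2b, left out by the filter, was not tested here. Averaged over the regions of each animal, Scn1a had a log2 signal of 10.36, 10.53 and 10.75 (lowest, median and highest of 6 animals) in iP and of 9.56, 9.72 and 10.36 in iNP. The ranges did not overlap, but only just: the lowest iP animal (10.3645) lay beside the highest iNP animal, animal 8 (10.3598). The difference was 0.74 ± 0.12 (log2, iP minus iNP, SE, n = 6 animals each; 95% interval 0.48 to 0.99), a 1.67-fold higher signal in iP, with a limma adjusted p = 0.00163. Scn3a ran the other way.

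For Scn3a the brighter probe set (Y00766_g_at) had animal means of 10.03, 10.37 and 10.57 in iP and of 11.09, 11.16 and 11.23 in iNP. Here the lines stood well apart, with the iNP animals close together (SD 0.04, n = 6) and the iP animals more spread (SD 0.21, n = 6). The difference was -0.81 ± 0.08 (95% interval -0.99 to -0.64, adjusted p = 1.78e-05), so that the iP signal was 0.569 times that of iNP. The dimmer probe set (Y00766_at), with animal means of 7.72, 8.29 and 8.50 in iP and of 8.90, 9.07 and 9.25 in iNP, gave -0.87 ± 0.11 (adjusted p = 2.52e-04).

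In all, 3 of 9 member probe sets were called over all regions, where 2.65% of all tested probe sets were called. Of these, 1 was higher in iP (1.20% of all probe sets) and 2 were lower (1.45%), and the 2 are those of Scn3a. The animals of the lines did not overlap for the same number, 3 of 9, against 2.86% of all. The median difference of the 9 was -0.03 and that of all tested probe sets -0.01.

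**Figure D1:**
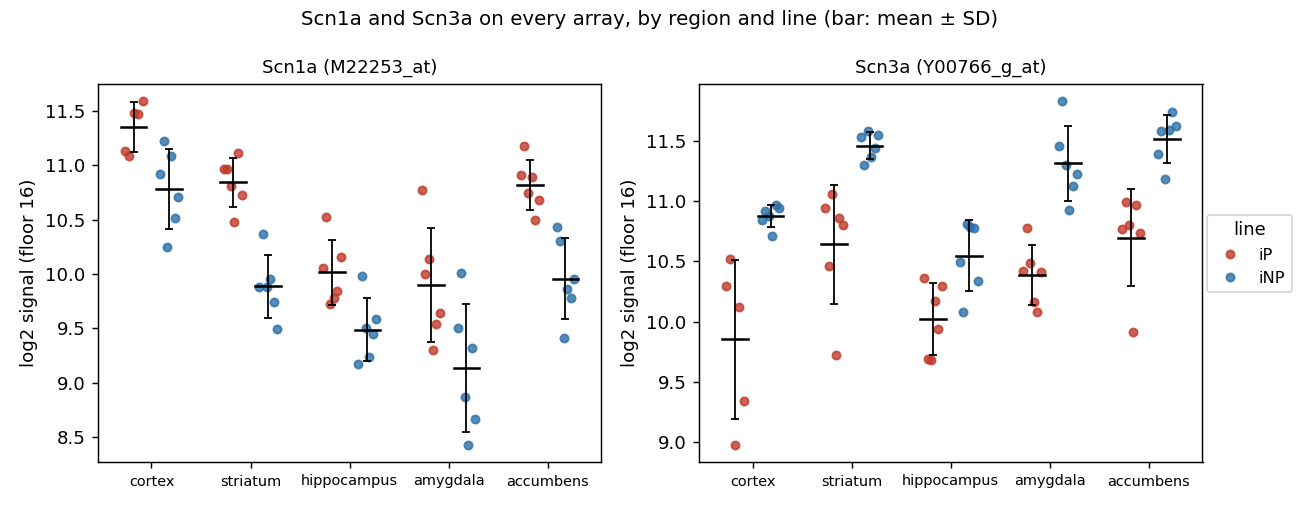
Log2 signal (vertical axis, no unit; values under 16 set to 16) of Scn1a (left) and of the brighter Scn3a probe set (right) on each of the 59 arrays, by region, with iP in red left of iNP in blue; bars are group means with SD. In each region the iP mean of Scn1a lies above the iNP mean and that of Scn3a below it; the lowest Scn3a value is iP cortex 3, at 8.98.

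Region by region, Scn1a was called in striatum and nucleus accumbens. In striatum its signal was 1424, 1893 and 2215 (lowest, median, highest of 6) in iP, against 719, 940 and 1324 in iNP. All iP arrays were above all iNP arrays there, and the difference of 0.96 ± 0.14 (adjusted p = 0.00149), a 1.94-fold higher signal in iP, was the largest of the 5 regions for this gene. In accumbens the signal was 1446, 1804 and 2314 in iP, against 680, 961 and 1386 in iNP. The groups again did not overlap, and the difference was 0.86 ± 0.16 (adjusted p = 0.0262).

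In the other regions the Scn1a difference had the same sign but was not called. Cortex of iP animals 1 to 5 had signals of 2249, 2167, 2863, 2847 and 3090, against 1212, 1806 and 2398 (lowest, median, highest of 6) in iNP. The iP range starts within that of iNP, and the difference was 0.57 ± 0.18 (adjusted p = 0.530). In hippocampus the signal was 848, 991 and 1477 in iP, against 575, 711 and 1013 in iNP, and the difference was 0.53 (adjusted p = 0.280). In amygdala it was 631, 911 and 1754 in iP, against 345, 552 and 1033 in iNP. Both groups were widely spread there and overlapped (0.77 ± 0.28, adjusted p = 0.432).

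Scn3a on the brighter probe set was called in striatum, amygdala and accumbens. In amygdala its signal was 1082, 1370 and 1754 in iP, against 1950, 2460 and 3649 in iNP. The highest iP array was below the lowest iNP array, and the difference was -0.92 ± 0.15 (adjusted p = 0.00767). In striatum the signal was 844, 1823 and 2137 in iP, against 2526, 2866 and 3073 in iNP (-0.82 ± 0.18, adjusted p = 0.0446). In accumbens it was 962, 1765 and 2042 in iP, against 2330, 3078 and 3424 in iNP (-0.82 ± 0.17, adjusted p = 0.0332). In both of these regions the groups did not overlap, and the iP arrays were more spread (SD 0.49 and 0.40 on the log2 scale) than the iNP arrays (SD 0.11 and 0.20).

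Cortex of iP animals 1 to 5 had Scn3a signals of 1259, 1472, 505, 1117 and 651, against 1674, 1906 and 2003 in iNP. All 5 iP arrays were below all iNP arrays, with animals 3 and 5 the lowest, and the difference of -1.02 ± 0.24 was not called (adjusted p = 0.233). In hippocampus the signal was 823, 1068 and 1315 in iP, against 1084, 1601 and 1796 in iNP, and these ranges overlapped (-0.52 ± 0.16, adjusted p = 0.276). On the dimmer Scn3a probe set the difference was -0.84 in cortex and -0.69 in striatum. It was -1.01 in hippocampus and -0.90 in accumbens, and the difference of -0.93 in amygdala was called (adjusted p = 0.0320). Its groups overlapped in hippocampus and in no other region.

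Over the members, 2 of 9 probe sets were called in striatum by limma (0.839% of all tested probe sets), 2 in amygdala (0.725%) and 2 in accumbens (0.572%), against 0 in cortex (0.229%) and 0 in hippocampus (0.667%), and these 6 calls were all of Scn1a or Scn3a. Unadjusted p-values under 0.05 were found for both genes in the regions without a call as well (Scn1a 0.00777 in cortex and 0.00518 in hippocampus; Scn3a, brighter probe set, 0.00129 and 0.00494). The groups did not overlap for 3 of 9 in striatum (1.43% of all probe sets), 3 in accumbens (1.07%), 2 in cortex (1.22%), 2 in amygdala (1.14%) and 0 in hippocampus (1.28%). Leaving out 1 animal at a time ended the call of Scn3a in striatum for 9 of 12 animals (all but 1, 3 and 4; adjusted p 0.0543 to 0.106), of Scn3a in accumbens for 8 (all but 2, 4, 5 and 9; 0.0632 to 0.110), of the dimmer Scn3a probe set in amygdala for 9 (all but 1, 6 and 11; 0.0513 to 0.0960) and of Scn1a in accumbens for 7 (all but 4 to 8; 0.0509 to 0.0809). It ended neither the call of Scn1a in striatum nor that of the brighter Scn3a probe set in amygdala.

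**Figure D2:**
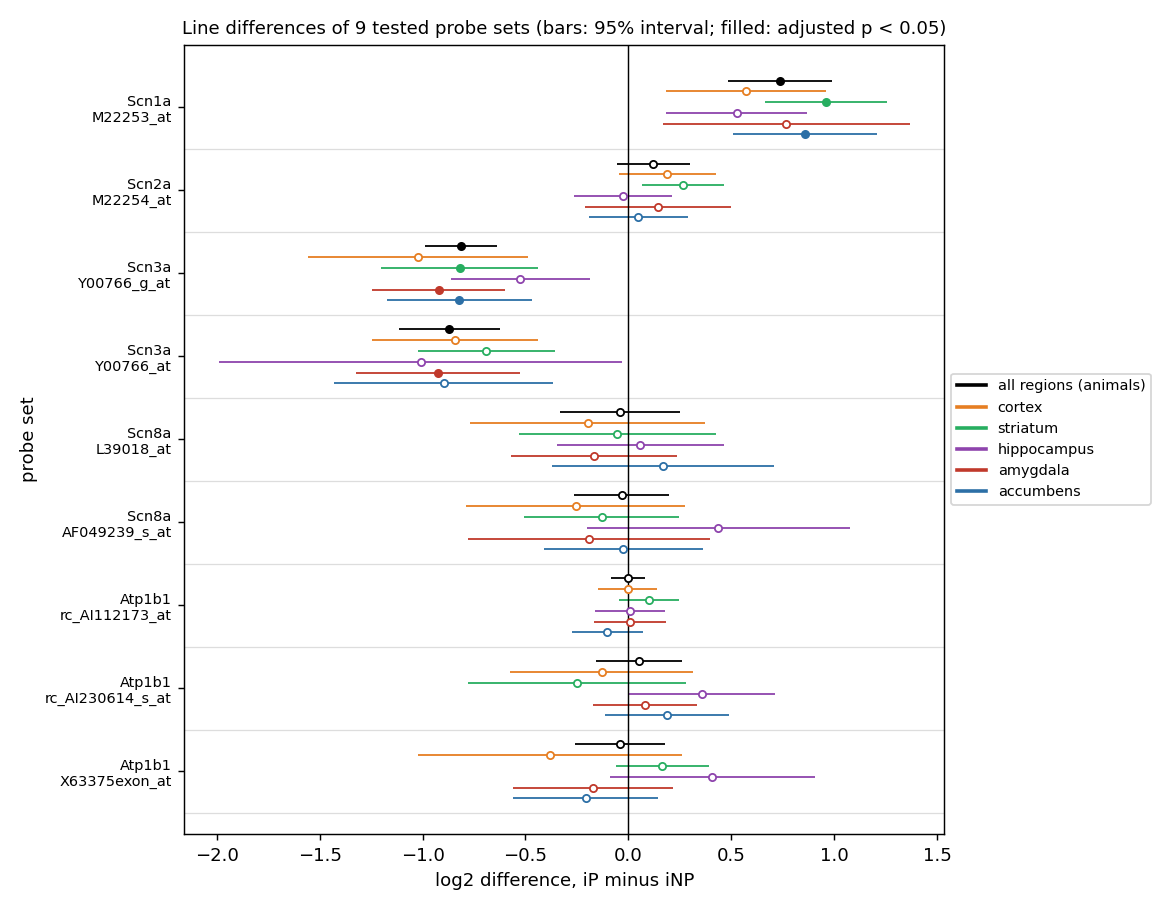
Log2 difference iP minus iNP (horizontal axis) of the 9 tested member probe sets over all regions (black, animals as replicates) and in each region (colours); bars are 95% intervals and filled points have a limma adjusted p under 0.05. All 6 Scn1a points lie right of 0 and all 12 Scn3a points left of it, while the other members lie around 0.

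Whether these line differences varied with the region was tested with a line by region term (limma, moderated F test). Of the 9 member probe sets 0 were called (0.00% of all tested probe sets). No member had an unadjusted p under 0.05; the lowest were those of the Atp1b1 probe set X63375exon_at (0.0535) and of rc_AI230614_s_at (0.161), and Scn1a had 0.358 and Scn3a 0.506. The call in some regions and not in others is therefore no shown difference between regions.

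Without the 5 arrays that were closest to another region, the difference over all regions was 0.72 (adjusted p = 2.88e-04) for Scn1a and -0.72 (adjusted p = 1.05e-05) for Scn3a. Without iP cortex 5 the cortex differences were 0.51 (adjusted p = 0.564) for Scn1a and -0.90 (adjusted p = 0.182) for Scn3a. In amygdala without its 3 such arrays Scn1a had 0.91 (adjusted p = 0.0944) and the brighter Scn3a probe set -0.76 (adjusted p = 0.0380), and the call of the dimmer Scn3a probe set was lost (-0.78, adjusted p = 0.165). In accumbens without iP 4 both stayed called (Scn1a 0.84, adjusted p = 0.0393; Scn3a -0.66, adjusted p = 0.00818). A grouping of animals 1, 2, 7 and 8 against the other 8, seen in earlier work on these arrays, gives each side animals of both lines. Within those 4 animals the differences were 0.58 for Scn1a (adjusted p = 0.420) and -0.62 for Scn3a (adjusted p = 0.0570), and within the other 8 they were 0.82 (adjusted p = 5.71e-05) and -0.91 (adjusted p = 2.77e-04).

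The other alpha subunits were not called. Scn2a lies beside Scn3a in the genome and had animal means of 11.52, 11.80 and 11.95 in iP and of 11.47, 11.75 and 11.80 in iNP. The lines overlapped, and the difference was 0.12 (95% interval -0.05 to 0.30, adjusted p = 0.612). Its largest regional difference was in striatum, where the signal was 3616, 4024 and 4453 in iP, against 2637, 3403 and 3916 in iNP (0.27, 95% interval 0.06 to 0.47, adjusted p = 0.415).

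Scn8a on L39018_at gave -0.04 (95% interval -0.33 to 0.25, adjusted p = 0.944) over all regions, with animal means of 8.83, 8.84 and 9.54 in iP and of 8.62, 9.02 and 9.37 in iNP. Its second tested probe set, AF049239_s_at, gave -0.03 (95% interval -0.26 to 0.20, adjusted p = 0.944). By region these 2 probe sets ran from -0.26 (AF049239_s_at in cortex) to 0.44 (AF049239_s_at in hippocampus), and none of the 10 differences was called. The third probe set, M27223_at, had a median signal of 48.4 and was below 16 on 7 of 59 arrays, so it measured little.

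Scn2b, the auxiliary subunit that is bound to the alpha subunit by a disulfide bridge, had a median signal of 241 and was left out by the filter. Its signal in cortex was 16.6, 182 and 333 (lowest, median and highest of 5) in iP, against 166, 274 and 378 in iNP. In striatum it was 21.9, 275 and 387 in iP, against 127, 291 and 354 in iNP. In amygdala it was 21.5, 53.6 and 324 in iP, against 29.7, 117 and 187 in iNP. In accumbens it was 6.47, 248 and 344 in iP, against 141, 296 and 342 in iNP. In hippocampus the iP median was the higher one, with 21.7, 270 and 366 in iP, against 20.2, 216 and 431 in iNP. The lines overlapped in each region, and single very low arrays were found in both lines. The SD within iP was 1.53 to 1.73 on the log2 scale, and within iNP it ran from 0.42 in cortex to 1.62 in hippocampus. With no filter on low signal the difference over all regions was -0.57 ± 0.31 (adjusted p = 0.557).

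Atp1b1, the beta subunit that the pump needs to reach the membrane, was not called between the lines on any of its 3 probe sets, over all regions or within 1 region. The brightest, rc_AI112173_at, had animal means of 15.01, 15.06 and 15.20 in iP and of 15.06, 15.07 and 15.14 in iNP. The 95% interval of its difference, -0.08 to 0.08, was the narrowest among the members (adjusted p = 0.998). The probe set rc_AI230614_s_at gave 0.05 (95% interval -0.16 to 0.26, adjusted p = 0.893) and X63375exon_at gave -0.04 (95% interval -0.26 to 0.18, adjusted p = 0.922). Within single regions, the interval left out 0 for rc_AI230614_s_at in hippocampus, where its difference was 0.36 (95% interval 0.0013 to 0.71), but the limma p was 0.706 after adjustment. In the same region rc_AI112173_at gave 0.0073 (adjusted p = 0.988) and X63375exon_at gave 0.41 (adjusted p = 0.815).

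**Figure D3:**
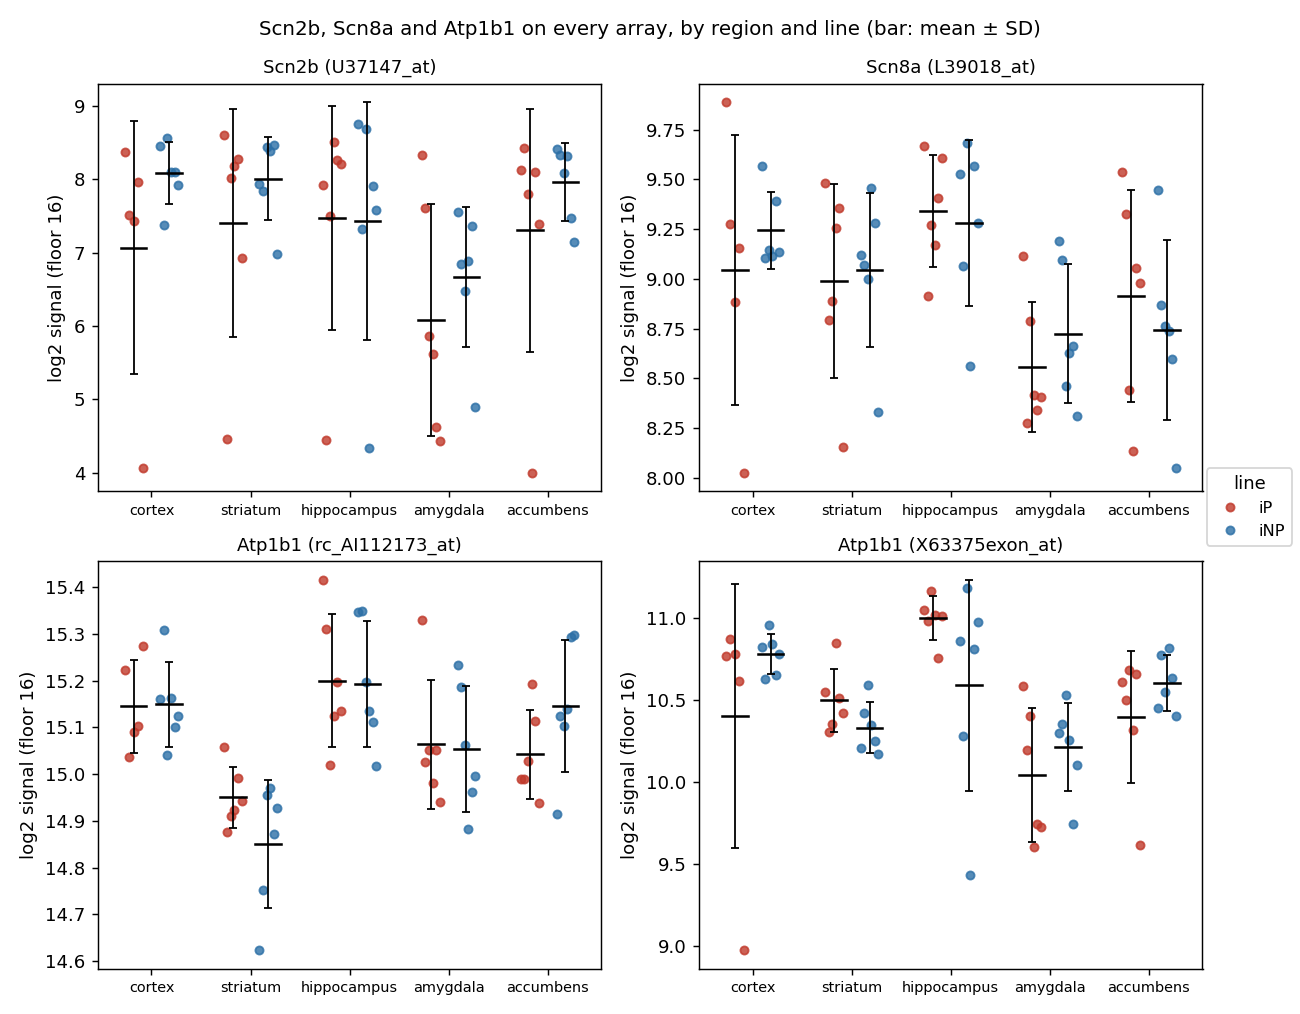
Log2 signal (vertical axis, no unit; values under 16 set to 16) of Scn2b, Scn8a (L39018_at) and 2 Atp1b1 probe sets on each of the 59 arrays, by region, with iP in red left of iNP in blue; bars are group means with SD. The lines overlap in every region; Scn2b has single arrays far below the rest, such as iP cortex 5 at 4.06, and rc_AI112173_at is lowest in striatum.

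Scn1a and Scn3a differed between regions as well, and so did most other members. Within animals, a region was compared with the mean over the 4 others, and 20 of 45 comparisons of a member probe set with a region were called. Hippocampus had 7 of 9 (23.3% of all tested probe sets), striatum 4 of 9 (13.9%), amygdala 4 of 9 (26.1%), accumbens 3 of 9 (20.9%) and cortex 2 of 9 (17.0%). With an absolute log2 difference over 1 as well, Scn1a in cortex (1.01% of all) and the dimmer Scn3a probe set in hippocampus (2.12% of all) were left, and none in striatum (0.839% of all), amygdala (1.51%) or accumbens (1.22%). For pairs of regions, the share of all probe sets called was 14.1% for striatum and accumbens, 23.2% for hippocampus and amygdala, 22.8% for cortex and accumbens, 18.2% for striatum and hippocampus, 24.3% for striatum and amygdala, 21.5% for cortex and hippocampus, and 22.6% for cortex and amygdala.

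Scn1a was highest in cortex, where its mean log2 signal over the lines was 11.07, which is 1.07 ± 0.10 above the mean of the other regions (adjusted p = 1.68e-11), a 2.09-fold higher signal. Accumbens (10.39) and striatum (10.36) came next and did not differ beyond their spread (striatum minus accumbens -0.02, adjusted p = 0.948). Hippocampus (9.75) and amygdala (9.52) were lowest and likewise were not told apart (0.24, adjusted p = 0.191). Against the other regions, Scn1a was lower in hippocampus (-0.58, adjusted p = 6.48e-06) and in amygdala (-0.88, adjusted p = 9.50e-10). Cortex was above accumbens by 0.68 (adjusted p = 4.75e-05), and striatum above hippocampus by 0.61 (adjusted p = 1.98e-04).

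Scn3a had another order. On the brighter probe set accumbens (11.11), striatum (11.05) and amygdala (10.85) were followed by cortex (10.37) and hippocampus (10.29). The first 2 were not told apart (-0.06 for striatum minus accumbens, adjusted p = 0.867), nor striatum and amygdala (0.20, adjusted p = 0.299), nor cortex and hippocampus (0.10, adjusted p = 0.677), while amygdala and cortex were (-0.46 for cortex minus amygdala, adjusted p = 0.0115). Against the other regions Scn3a was higher by 0.46 in accumbens (adjusted p = 8.89e-04) and by 0.39 in striatum (adjusted p = 0.00773), and lower in hippocampus (-0.56, adjusted p = 4.64e-05) and cortex (-0.44, adjusted p = 0.00325). The dimmer probe set gave 0.55 in accumbens, 0.68 in striatum and -1.06 in hippocampus, all called, but -0.07 in cortex (adjusted p = 0.813). For pairs of regions it left striatum and accumbens not told apart as well (0.10, adjusted p = 0.829). Its other pairs went otherwise than on the brighter one. Striatum was above amygdala (0.62, adjusted p = 0.0196) and cortex above hippocampus (0.79, adjusted p = 0.00366), while cortex and amygdala were not told apart (0.02, adjusted p = 0.970). Cortex thus held the highest Scn1a signal, while its Scn3a level against the other regions differed between the 2 probe sets.

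**Figure D4:**
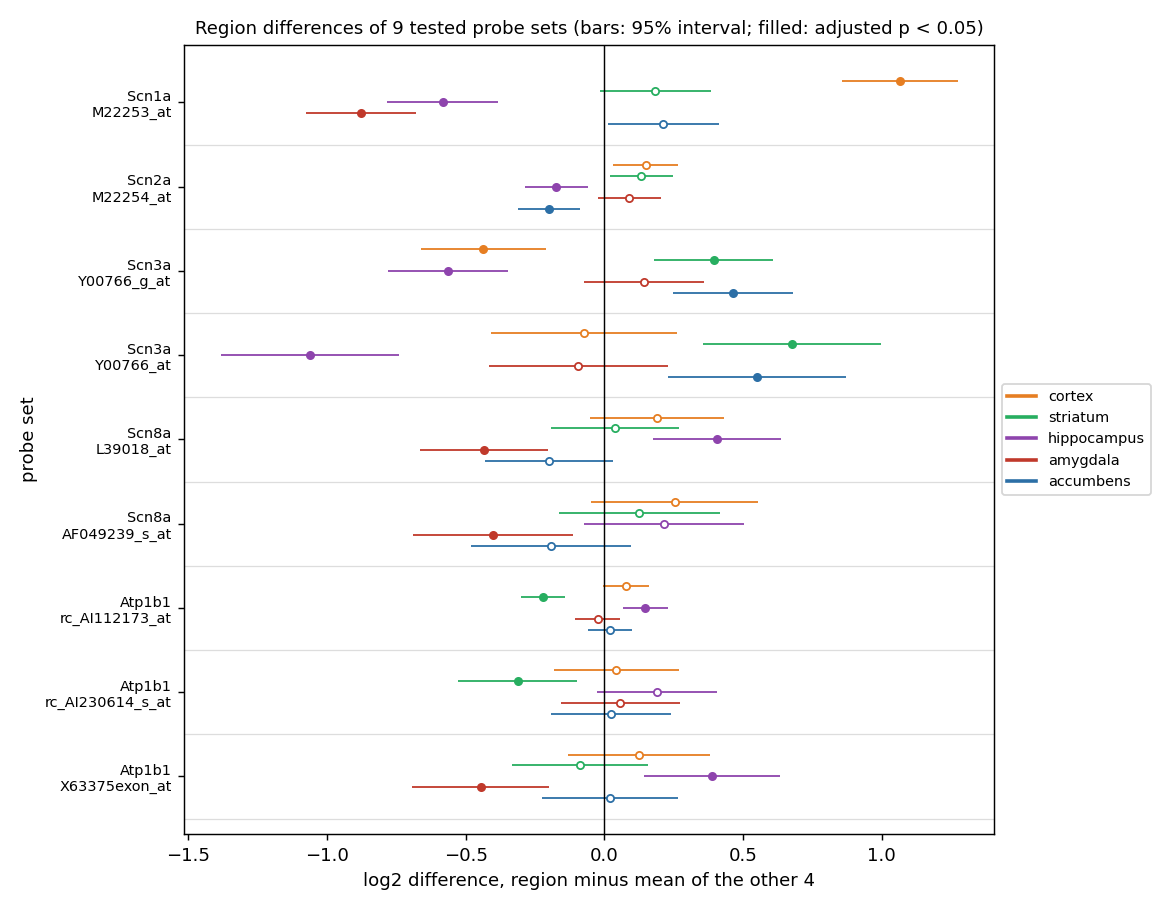
Log2 difference of each region from the mean of the other 4 (horizontal axis) for the 9 tested member probe sets, fitted within animals; bars are 95% intervals and filled points have a limma adjusted p under 0.05. Scn1a in cortex stands farthest right, at 1.07, and Scn3a (Y00766_at) in hippocampus farthest left, at -1.06.

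Scn2a had its lower levels in accumbens (-0.20, adjusted p = 0.00617) and hippocampus (-0.17, adjusted p = 0.0184); without animal 2 the hippocampus difference was no longer called (adjusted p = 0.0903). Scn8a was higher in hippocampus on L39018_at (0.40, adjusted p = 0.00647), while AF049239_s_at gave 0.22 there (adjusted p = 0.314). Both probe sets were lower in amygdala (-0.43, adjusted p = 0.00353 and -0.40, adjusted p = 0.0328), and leaving out animal 4, 5, 6, 9 or 11 ended the second of these calls (adjusted p 0.0550 to 0.125). With the 5 arrays closest to another region left out, Scn2a was called as higher in amygdala (0.18, adjusted p = 0.0122, against 0.09 and 0.250 with all arrays). Scn8a on L39018_at was then called as higher in cortex (0.32, adjusted p = 0.0279, against 0.19 and 0.309). Scn2b, with a mean log2 signal over the lines of 6.37 in amygdala and of 7.45 to 7.71 in the other regions, was not tested.

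Atp1b1 was lowest in striatum on its brightest probe set (-0.22, adjusted p = 4.06e-05) and higher in hippocampus (0.15, adjusted p = 0.00385). On rc_AI230614_s_at the striatum difference was -0.31 (adjusted p = 0.0415), and without animal 1, 2, 4, 5, 9 or 11 it was not called (adjusted p 0.0519 to 0.196). The dimmest probe set, X63375exon_at, was higher in hippocampus (0.39, adjusted p = 0.0155) and lower in amygdala (-0.45, adjusted p = 0.00498), and its striatum difference was -0.09 (adjusted p = 0.723). In amygdala the other probe sets were not called, with -0.02 for rc_AI112173_at (adjusted p = 0.709) and 0.06 for rc_AI230614_s_at (adjusted p = 0.744). Without the 5 arrays closest to another region, X63375exon_at was called as higher in cortex (0.30, adjusted p = 0.0441, against 0.12 and 0.576 with all arrays). The striatum call of rc_AI230614_s_at was then lost (-0.29, adjusted p = 0.0526). The Atp1b1 probe sets thus share the sign of the difference in hippocampus and striatum, but not each call.

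Genes that work with the members were taken from lists, and each is given by its difference between the lines over all regions. None of the 3 other tested sodium channel genes was called: Nalcn, a sodium leak channel, had 0.03, Scn4a 0.01 and Scn7a 0.06 (log2). None of 5 other pump genes was called either, with -0.12 for Atp1b2, -0.07 for Fxyd1 and -0.00236 for Atp1b3. The same held for 11 channel partners and parts of the axon initial segment, such as Calm2 (0.00221), Sptan1 (0.06) and Cntnap1 (0.03), and for 7 ion exchangers and transporters. Among the last, Slc12a5, a potassium chloride cotransporter of neurons, had -0.01, Slc8a1, a sodium calcium exchanger, 0.03, and Slc4a4, a sodium bicarbonate cotransporter, -0.60 (adjusted p = 0.128). The medians of the 4 lists were 0.03, -0.09, 0.03 and -0.02, beside -0.01 over all tested probe sets, of which 2.65% were called.

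Since Scn3a and Scn1a are near each other on chromosome 3, the genes around them were listed as well, up to 40 genes to each side. Of 25 with a probe set, 11 were tested and 1 was called, where 2.65% of all tested probe sets were called. This was Grb14, an adaptor protein of receptor tyrosine kinases, which is 3 genes before Scn3a and was higher in iP (0.34 ± 0.06, adjusted p = 0.00418). Within animals 1, 2, 7 and 8 its difference was 0.30 (adjusted p = 0.744) and within the other 8 it was 0.35 (adjusted p = 0.0517). Scn7a, 8 genes after Scn3a, had 0.06 (adjusted p = 0.886), and the median of the 11 was 7.47e-04. Scn9a, next to Scn1a, did not pass the filter. The called differences within this stretch ran in both directions, but those of Scn3a and Scn1a were known when the members were chosen. Scn2a, uncalled, lies between Scn3a and Scn1a.

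By the Pearson correlation of the log2 signal over all 59 arrays, the probe sets most like Scn1a were those of Prkcb (0.753), a protein kinase C, Plcb4 (0.737), a phospholipase C, and Atp2b2 (0.723), a calcium pump. None of these was called between the lines (0.04, 0.02 and 0.13). Most like Scn3a were Paqr3 (0.794), Gnao1 (0.715), a G protein alpha subunit, and Cdk13 (0.699), a kinase. Paqr3 (-1.71, adjusted p = 1.07e-07) and Cdk13 (-0.39, adjusted p = 0.0392) were lower in iP too, while Gnao1 had -0.35 (adjusted p = 0.135). The arrays share animals, regions and lines, so these correlations describe the set and were not tested. Line differences were left in the signal, so this choice favours genes that differ between the lines in the same direction as Scn1a or Scn3a.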

How the data were processed

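Affymetrix rat arrays, whose probes lie toward the 3′ end of transcripts, were used. The deposited values are linear intensity values per probe set, already scaled by the authors so that the 2% trimmed mean of each array was 1000; the program was not given in the sources used here. Line and region came from titles and genotype labels. The source name gives iNP for every array and was not used. Signals under 16 were set to 16 and log2 transformed. The 59 control probe sets and the 40% with the lowest mean were left out, leaving 5244 of 8740. The number of animals limits the precision.

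limma 3.58.1 in R 4.3.3 (empirical Bayes with an intensity trend, two-sided, Benjamini-Hochberg over all tested probe sets, call at adjusted p under 0.05) compared iP with iNP over all regions, on animal means after removing the region level, and in each region alone. The line by region term and the region comparisons had the animal as a fixed block; contrasts between pairs of regions came from the latter fit and were added later. Scripts were tested on simulated data. Regions pair through the animal numbers in the titles; residuals of 1 animal's regions correlated at 0.0574 over 116 pairs, and those of different animals at -0.00369. Nothing in the labels says how the animals were bred or caged beyond paired housing, so p-values of the line differences measure the spread between these animals. Those of the region comparisons and of the line by region term measure the spread of arrays within animals.

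The members, gene lists and tests were chosen with earlier results of these data known, so the opposite differences of Scn1a and Scn3a are no independent finding. By rule, all member probe sets are named, every called gene of a list with at most 3 others, the brightest (for genes beside the channels on chromosome 3, the nearest tested gene on each side), and the 3 genes most correlated with Scn1a and Scn3a. Alternatives covered the floor, the filter, normalization, variance trend, array weights, leaving out arrays or animals, the animal block and a grouping of animals.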

Additional observations from a re-analysis of the deposited data

Results flagged for a closer look

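The log2 signal of each of the 11 member probe sets was examined in each of the 10 groups of 1 region and line, and in 10 of these 110 groups 1 array lay far from the others. Chance alone sets apart about 1 group in 20 by this measure. Scn2b accounted for 4 of them: iP cortex 5 had 4.06, with the others at 7.43 to 8.38; iP hippocampus 2 had 4.44, with the others at 7.50 to 8.51; iP accumbens 4 had 4.00, with the others at 7.39 to 8.43; and iNP hippocampus 10 had 4.34, with the others at 7.32 to 8.75. The Scn8a probe set M27223_at was high on iP cortex 4 (6.85, with the others at 5.52 to 5.81) and at the floor on iP accumbens 4 (4.00, with the others at 5.49 to 6.00). Scn3a (Y00766_g_at) was low on iP accumbens 4, at 9.91, with the others at 10.74 to 11.00. The Atp1b1 probe set rc_AI112173_at was high on iP amygdala 1, at 15.33, with the others at 14.94 to 15.05. The Atp1b1 probe set X63375exon_at was low on iP cortex 5 (8.97, with the others at 10.62 to 10.88) and on iP accumbens 6 (9.62, with the others at 10.32 to 10.68). Of these arrays iP cortex 5, iP amygdala 1 and iP accumbens 4 were also among the 5 closest to another region.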

How the results depend on the processing

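Across 27 alternatives and subsets of the animals, the Scn1a difference over all regions was positive and that of Scn3a negative in each, and both were called in 26. The exception was animals 1, 2, 7 and 8 alone, where Scn1a had 0.58 (adjusted p = 0.420), Scn3a -0.62 (adjusted p = 0.0570) and 0 of the 3 calls over all regions were left; only 4 animals enter there. With any 1 animal left out, Scn1a ran from 0.68 to 0.84 (largest adjusted p = 0.00617) and Scn3a from -0.86 to -0.75 (largest adjusted p = 1.04e-04). Each time 3 member probe sets were called. Only animal 8 moved the Scn1a difference to 0.84. The 6 calls within single regions became 2 with no filter on low signal, where more probe sets are tested, and 2 to 5 with 1 animal left out, fewer in each case than with all; the cause was not tested. The 0 calls for line by region were 0 under each alternative. The 20 region calls became 2 with an absolute log2 difference over 1 as well, and 18 to 21 with 1 animal left out. With all arrays and a random replicate block for the animal, Scn1a had 0.74 and Scn3a -0.82 over all regions, with 3 calls there and 7 within regions; with no replicate block the values were 0.74 and -0.82. Without the block 18 region calls were made; the calls lost were those of Scn2a in hippocampus and Atp1b1 (rc_AI230614_s_at) in striatum. In the fits with all arrays the calls of Scn3a (Y00766_g_at) in cortex and Scn1a in amygdala were gained and that of Scn3a (Y00766_at) in amygdala was lost. No result changed its direction while called. The signal limits what can be said of Scn8a on M27223_at, below the floor on 7 of 59 arrays, and neither it nor Scn2b, below it on 1, passed the filter.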
